A study of Xenopus tropicalis with 12 samples.

Results

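Voltage-gated sodium, calcium and potassium channel genes, the other potassium channel genes and the HCN pacemaker channel genes were followed in the brain of the frog Xenopus tropicalis through metamorphosis. The genes were chosen by name only, as kcn, scn, cacna, cacnb, cacng and hcn genes in the annotation of the deposited tables. The name rule matched 114 gene models, of which 2 were dropped because each counts the reads of a channel gene together with those of another gene. After keeping the model with the most counts for each of 4 names that sat on more than 1 model, 108 channel genes remained of 33875 gene models in all. They are 76 potassium, 19 calcium, 10 sodium and 3 HCN channel genes.

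RNA was sequenced from a microdissected block of wild-type tadpole brain that holds the preoptic area, hypothalamus and thalamus. The stages, on the Nieuwkoop-Faber scale, were NF50 (premetamorphosis), NF56 (prometamorphosis), NF62 (climax) and NF66 (metamorphosis complete), with 3 libraries each. All animals were wild type from a commercial supplier and no treatment is listed, so stage is the one labelled difference between the groups. The libraries of a stage are labelled biological replicates, without a number of tadpoles per library.

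Voltage-gated channels open when the membrane depolarises or, for HCN channels, when it hyperpolarises, and together they set when a neuron fires, how fast it repolarises and how its transmitter release is triggered. Each is built from pore-forming subunits, most often called alpha, and from auxiliary subunits that change gating, trafficking or anchoring. Inward rectifier and two-pore-domain potassium channels, by contrast, set the resting potential, and in glia they carry potassium away from active neurons.

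Libraries held 12046529 to 31029733 expected counts, and 95 of the 108 channel genes had enough counts to be tested. The leading axis of variation left after the stage means held 54.2% of that variation, and NF62 library 2 and NF66 library 3 lay at its ends. Neuronal markers such as snap25 and syt1 and hypothalamic genes such as avp, trh, otp and nkx2-1 were detected at every stage. Markers of other cells moved too between NF50 and NF66. Of the tested markers, 5 of 7 for oligodendrocytes rose and 0 fell, and 6 of 10 for astrocytes and radial glia fell while 1 rose. For cell division 8 of 10 fell while 2 rose, and for neurons 6 of 12 rose while 2 fell. Of all tested gene models 17.9% rose and 18.8% fell. The tested cell division markers had a median log2 fold change of -3.17. Their summed level, in which the most abundant markers weigh most, stood at 296.5 to 309.0 CPM at NF50 and 273.8 to 287.8 CPM at NF66. The sum therefore does not show the size of the falls. The part of all these marker changes in the channel results was not tested. In bulk tissue, fewer cells of a type and less RNA per cell cannot be told apart.

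Levels of different genes were set side by side as TPM, which is per length. The 10 most abundant channel genes held 44.3% of the mean channel TPM, and 5 genes averaged at least 100 TPM while 19 averaged below 1. The sodium channel beta subunit gene scn2b was highest in each stage, with a mean of 236.3 TPM over the 12 libraries. It was followed by the alpha subunit gene scn3a (151.2 TPM), the KChIP gene kcnip1 (141.6 TPM), the beta subunit gene scn3b (127.6 TPM) and kcnj10 (105.8 TPM), the inward rectifier of glial cells. Between libraries, the NF50 values of scn2b and scn3a overlapped, at 144 ± 42.1 TPM (SD, n = 3) and 132.7 ± 30.0 TPM. Within each NF50 library scn2b was the higher of these genes, by a small margin in library 4. At NF66 scn2b averaged 313.9 ± 49.0 TPM, above scn3a at 160.7 ± 3.28 TPM and kcnip1 at 172.4 ± 8.46 TPM, and every NF66 value of scn2b lay above every one of theirs. In this order cacng7 went from rank 3 at NF50 to rank 11 at NF66, and cacna1g from rank 11 to rank 6. Summed channel TPM was 1437 in NF50 library 4 and 2186 to 2425 in the other NF50 libraries. TPM ratios and shares by stage were therefore taken within libraries, and stage changes below are on CPM scaled by TMM factors unless stated.

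Channel genes as a group were higher late than early. At NF66 against NF50, 42 of the 95 tested channel genes rose and 6 fell, where 17.9% of all tested gene models were called higher, 18.8% lower and 36.7% in either direction. The median log2 fold change of the tested channel genes was 0.41, beside 0.02 for all tested models. Neuronal markers had a median of 0.25 in the same contrast. Counts by role and family given below for this contrast stand beside the same shares of all models, 17.9% higher and 18.8% lower.

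The rises were spread over the interval from NF50 to NF62. At NF56 against NF50, 15 channel genes rose and 4 fell, beside 6.51% and 7.96% of all models. At NF62 against NF56, 19 rose and 1 fell, beside 9.95% and 8.97% of all models. At NF66 against NF62, 2 rose, beside 1.36% of all models, and by edgeR's quasi-likelihood test none fell, beside 1.79%. Of all models 3.15% were called in either direction in that last contrast. There 2 channel genes were lower at an unadjusted p under 0.05, and DESeq2 called 1 lower. In total 44 of the 95 differed among the 4 stages, which is near the 39.6% of all models that did. Of the 44, 30 had their lowest mean at NF50 and 28 their highest at NF66. The same counts were not made for all models, so these describe the channel genes only.

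Counted by libraries alone, 48 of the 95 channel genes had every NF66 library above every NF50 library and 7 the reverse, beside 22.5% and 24.0% of all models. For NF56 against NF50 these counts were 27 and 11, beside 16.5% and 19.0%. For NF62 against NF56 they were 27 and 6, beside 18.0% and 17.9%, and for NF66 against NF62 they were 11 and 3, beside 8.86% and 10.6%.

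Scaling bears on these directions. On TPM without rescaling, the median of all models moved by 0.32 (log2) at NF56 against NF50 and by 0.29 at NF66 against NF50, and the channel medians lay 0.15 and 0.34 above those. On the main scale the channel medians lay 0.16 and 0.39 above the medians of all models. Of named values past the threshold, cacng7 at NF56 against NF50 was the only one whose sign turned under any alternative.

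**Figure D1:**
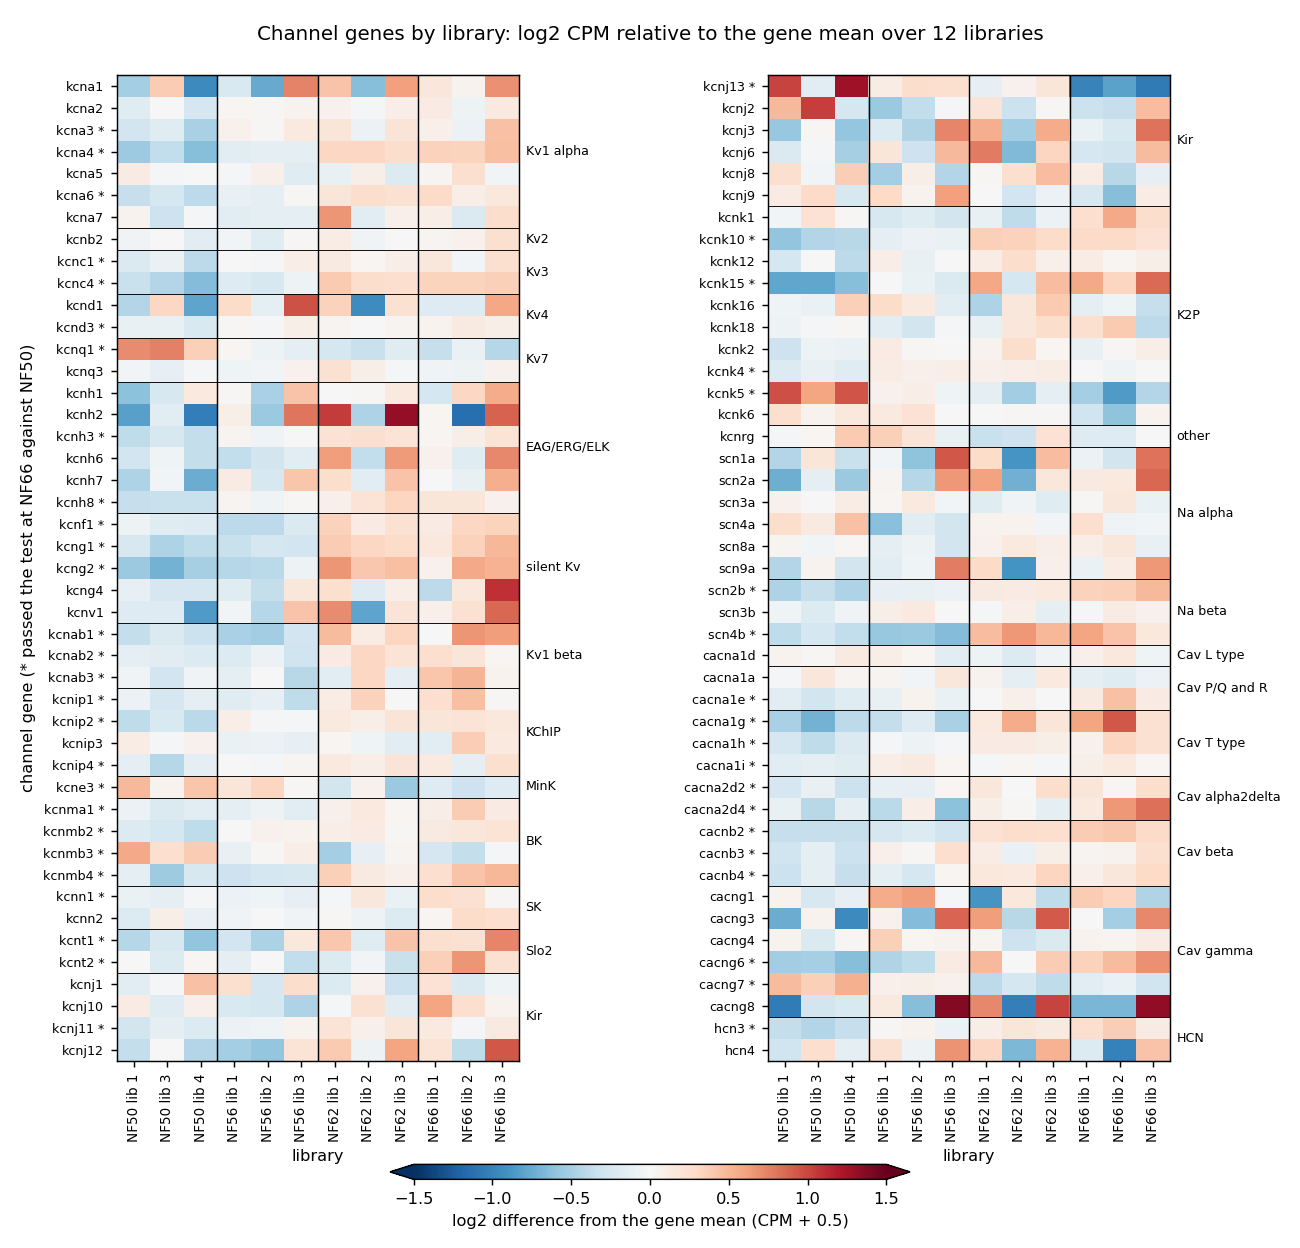
Each of the 90 rows is a tested channel gene and each column a library, coloured by the log2 difference of CPM + 0.5 from the gene's mean over the 12 libraries, with families named at the right and an asterisk where the gene passed the test at NF66 against NF50 (40 higher, 6 lower). Most marked rows run from blue at NF50 to red at NF62 and NF66, and some unmarked rows such as kcnh2, scn1a and cacng8 differ more among libraries of a stage than between stages.

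By role, 16 of 25 tested auxiliary subunit genes rose at NF66 against NF50 and 3 fell, beside 17.9% and 18.8% of all models. Of 64 tested pore-forming subunit genes, 23 rose and 3 fell, and of 5 tested silent potassium channel subunits, which form no channel alone and modify others, 3 rose. The medians were 0.45 for auxiliary, 0.32 for pore-forming and 0.71 for silent subunits, beside 0.02 for all models. The difference between roles was not tested, and this grouping was made with the results known. The share of channel TPM held by auxiliary and silent subunits was 47.2% ± 0.281 at NF50, 47.0% ± 0.413 at NF56, 48.9% ± 0.530 at NF62 and 49.1% ± 0.490 at NF66 (SD, n = 3).

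**Figure D2:**
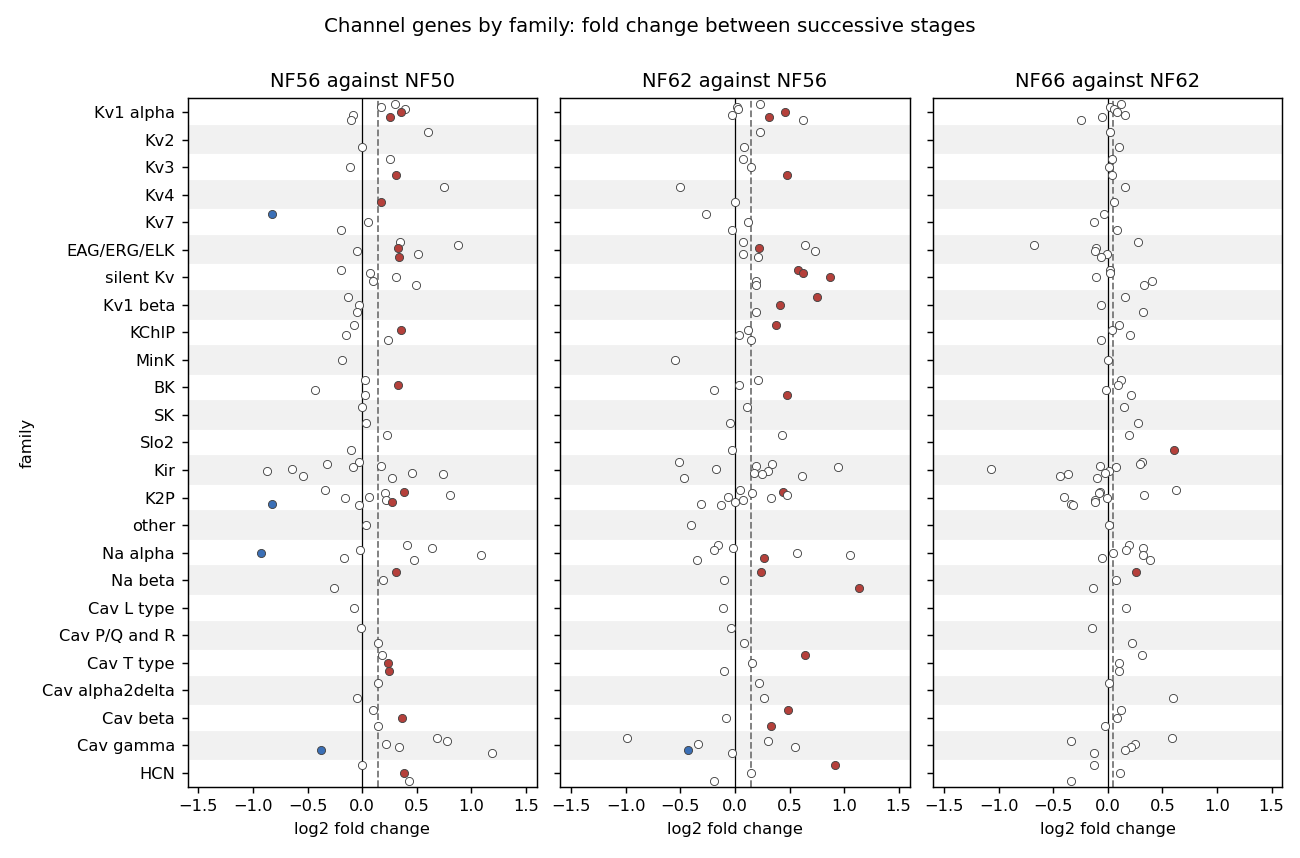
Points are log2 fold changes of tested channel genes on TMM-scaled CPM between successive stages, by family, with red for genes that rose, blue for genes that fell and white for genes that did not pass; the dashed line is the median of all tested channel genes. Red points number 15, 19 and 2 in the panels from left to right, and the medians are 0.15, 0.15 and 0.05.

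Among sodium channel genes, 2 of 3 tested beta subunit genes rose between NF50 and NF66, and the abundant alpha subunit genes scn3a and scn8a did not pass. Beta subunits are small membrane proteins with an immunoglobulin fold that alter gating and act in adhesion. In scn2b, CPM was 300.3, 324.8 and 300.2 at NF50, 379.6, 381.0 and 387.4 at NF56, 451.7, 450.8 and 455.7 at NF62, and 523.0, 530.8 and 578.0 at NF66. No stage overlapped with another, and the gene rose at each step. The log2 fold changes were 0.31 ± 0.05 (SE; edgeR adjusted p = 0.00294), 0.24 ± 0.05 (edgeR adjusted p = 0.00736) and 0.26 ± 0.05 (edgeR adjusted p = 0.0231), and 0.82 ± 0.05 over the whole interval (edgeR adjusted p = 9.62e-07). The last step was lost when any NF62 library, NF66 library 2 or NF66 library 3 was left out, with a highest adjusted p of 0.0856.

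Between successive stages the beta subunit gene scn4b passed only at NF62 against NF56. In mammals its product is linked to the resurgent sodium current of fast-firing neurons. Its CPM was 50.3, 54.6 and 50.7 at NF50, 44.2, 44.2 and 41.7 at NF56, 90.3, 103.4 and 92.5 at NF62, and 98.7, 88.1 and 73.4 at NF66. All NF62 and NF66 libraries lay above all earlier ones. At NF62 against NF56 it rose by 1.14 ± 0.10 on the log2 scale (edgeR adjusted p = 5.17e-05), the largest of the 19 rises in that contrast. The value at NF56 against NF50 was -0.26 ± 0.10 (edgeR adjusted p = 0.113) and did not pass, although every NF56 library lay below every NF50 library. In the RefSeq gene order of assembly UCB_Xtro_10.0, scn2b and scn4b are neighbours. The third beta gene, scn3b, had values of 0.19, -0.10, 0.07 and 0.16 in the 4 contrasts, none of which passed.

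Alpha subunits form the sodium pore. The most abundant, scn3a, which in mammals is chiefly an embryonic and early postnatal brain channel, had a mean CPM of 852.7 ± 31.8 at NF50, 842.9 ± 56.1 at NF56, 740.9 ± 38.7 at NF62 and 833.6 ± 78.8 at NF66 (SD, n = 3). The NF66 libraries overlapped those of NF50, and the difference was -0.03 with a 95% interval of -0.18 to 0.12 (log2). The alpha gene scn8a, in mammals the main channel of mature nodes of Ranvier and axon initial segments, averaged 284.3 ± 8.31, 252.6 ± 17.7, 303.7 ± 9.79 and 294.2 ± 28.8 CPM over the stages. It rose at NF62 against NF56 by 0.27 ± 0.07 (edgeR adjusted p = 0.0295), a call that was lost when NF56 library 1, NF56 library 3 or any NF62 library was left out. At NF66 against NF50 scn8a stood at 0.05, with an interval of -0.10 to 0.19.

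Other alpha genes were low. The gene scn2a averaged 5.63 ± 1.31 CPM at NF50 and 10.8 ± 3.47 at NF66 (log2 0.94 ± 0.38, edgeR adjusted p = 0.0797), and scn1a 5.54 ± 1.46 and 7.48 ± 3.49 (log2 0.44 ± 0.48, edgeR adjusted p = 0.518). Neither passed.

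Expressed within libraries, the summed TPM of beta subunits over that of alpha subunits was 1.452, 1.496 and 1.418 at NF50, 1.72, 1.65 and 1.64 at NF56, 2.09, 2.22 and 2.09 at NF62, and 2.18, 2.02 and 2.26 at NF66. Libraries of NF50, of NF56 and of the later stages formed separate ranges, and NF62 and NF66 overlapped. This ratio needs no scaling between libraries, and it was chosen with the values in view, so no test is given. Its sums cover only the 3 beta and 7 alpha genes analysed here. The part of scn4b in the beta sum was 15.9% ± 0.564, 11.6% ± 0.220, 21.0% ± 0.891 and 17.4% ± 2.75 over the stages. Sodium channels as a whole held 24.1%, 24.9%, 24.6% and 25.0% of channel TPM.

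**Figure D3:**
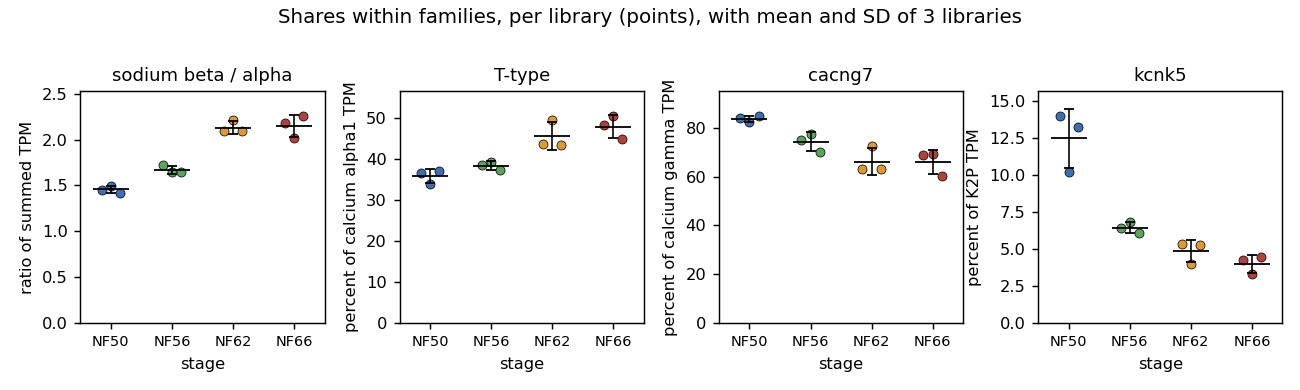
Points are libraries by stage, with the mean and SD of 3 libraries, for the ratio of summed TPM of sodium beta over sodium alpha subunits and for the percent of family TPM held by T-type calcium channels, cacng7 and kcnk5. All sums cover only the channel genes analysed here. The sodium ratio runs from 1.418 to 1.496 at NF50 and from 2.02 to 2.26 at NF66, the T-type share is higher in all NF62 and NF66 libraries than in all earlier ones, and the other shares are highest in the NF50 libraries.

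Among calcium channel genes, all 3 T-type pore genes rose between NF50 and NF66. T-type channels open near rest and in mammals give thalamic relay neurons their burst firing. The gene cacna1g had 213.9, 182.0 and 227.5 CPM at NF50, 233.7, 260.5 and 213.7 at NF56, 330.0, 438.5 and 338.3 at NF62, and 449.5, 570.0 and 351.3 at NF66. NF62 and NF66 libraries lay above all earlier ones and overlapped each other. At NF66 against NF50 it rose by 1.14 ± 0.17 (edgeR adjusted p = 0.000357), and at NF62 against NF56 by 0.64 ± 0.17 (edgeR adjusted p = 0.0224). The latter was lost without NF56 library 1, NF56 library 3 or NF62 library 2, with a highest adjusted p of 0.0793.

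The other T-type genes moved less. The gene cacna1h averaged 58.9 ± 3.34 CPM at NF50 and 83.0 ± 7.5 at NF66 (log2 0.50 ± 0.07, edgeR adjusted p = 0.000212), and cacna1i 61.9 ± 0.789 and 73.7 ± 3.06 (log2 0.25 ± 0.05, edgeR adjusted p = 0.00241). For cacna1i a rise of the same size stood at NF56 against NF50 (0.25 ± 0.05, edgeR adjusted p = 0.00797). In TPM, T-type genes made up 36.6%, 34.0% and 37.1% of the calcium pore subunits analysed here at NF50, 38.6%, 39.4% and 37.3% at NF56, 43.8%, 49.6% and 43.6% at NF62, and 48.5%, 50.5% and 44.8% at NF66. The pore genes cacna1b and cacna1c had no model of that name and are missing from that sum. Calcium channel genes as a whole held 24.8% of channel TPM at NF50 and 24.2% at NF66.

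High-voltage calcium pores gate transmitter release and calcium entry into the cell body. The R-type gene cacna1e rose from 346.6 ± 15.7 CPM at NF50 to 471.3 ± 62 at NF66 (log2 0.44 ± 0.09, edgeR adjusted p = 0.00189), passing at no single step. The P/Q-type gene cacna1a, at 208.7 ± 14.6 and 182.2 ± 5.75 CPM, had a value of -0.20 ± 0.08 (edgeR adjusted p = 0.0848). The L-type gene cacna1d, at 121.0 ± 5.05 and 120.2 ± 9.59 CPM, had a difference of -0.01 with an interval of -0.17 to 0.15. Neither of those passed.

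Calcium channel beta subunits sit on the cytoplasmic side and bring the pore to the membrane, and all 3 that were tested rose at NF66 against NF50. The gene cacnb2 had 107.8, 107.6 and 107.6 CPM at NF50, 115.4, 119.2 and 111.4 at NF56, 159.3, 164.6 and 163.2 at NF62, and 179.1, 182.5 and 168.0 at NF66. No stage overlapped with another. It rose by 0.49 ± 0.05 at NF62 against NF56 (edgeR adjusted p = 7.23e-05) and by 0.71 ± 0.05 over the whole interval (edgeR adjusted p = 1.18e-06). The genes cacnb3 and cacnb4 passed at different steps. Between NF50 and NF56 cacnb3 rose by 0.37 ± 0.09 (edgeR adjusted p = 0.0175, up to 0.0800 without NF50 library 1, NF50 library 4 or NF56 library 3), and between NF56 and NF62 cacnb4 rose by 0.33 ± 0.09 (edgeR adjusted p = 0.0245, up to 0.0951 without NF56 library 1, NF56 library 2 or NF62 library 3). That the steps differ between these genes was not tested. Both tested alpha2delta genes, which encode extracellular subunits, rose by NF66, cacna2d2 by 0.39 ± 0.09 (edgeR adjusted p = 0.00539) and cacna2d4 by 0.82 ± 0.21 (edgeR adjusted p = 0.0103).

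Gamma subunit genes went both ways. Most gamma proteins of the brain are known in mammals as TARPs, which escort AMPA receptors. The gene cacng7, one of these, had 267.1, 245.8 and 277.9 CPM at NF50, 202.9, 204.8 and 201.6 at NF56, 146.2, 159.3 and 147.8 at NF62, and 170.5, 179.5 and 155.8 at NF66. Every NF56 library lay below every NF50 library, and every NF62 and NF66 library below every NF56 library. It fell by 0.38 ± 0.06 on the log2 scale at NF56 against NF50 (edgeR adjusted p = 0.00359), where limma on log2(TPM + 1) without rescaling gave 0.01 with an adjusted p of 0.965. It fell by 0.43 ± 0.06 at NF62 against NF56 (edgeR adjusted p = 0.00107) and was the only channel gene that fell there. At NF66 against NF50 the change was -0.64 ± 0.06 (edgeR adjusted p = 1.98e-05).

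The share of cacng7 in gamma subunit TPM, which does not depend on scaling between libraries, was 83.8% ± 1.23 at NF50, 74.4% ± 3.93 at NF56, 66.3% ± 5.51 at NF62 and 66.3% ± 4.98 at NF66. The gamma sum covers the 6 gamma genes analysed here, and cacng2 is not among them. Such a share also drops when other gamma genes rise. On TPM without rescaling, mean cacng7 was 109.3 at NF50 and 108.5 at NF56, while the gamma sum was 130.7 and 146.5. On the log2(TPM + 1) scale the median of all models moved by 0.32 at that step. The share therefore cannot show whether cacng7 itself fell at that step. The gene cacng6, a relative of the muscle calcium channel subunit, went up from 8.89, 9.08 and 8.21 CPM at NF50 to 16.6, 18.3 and 21.2 at NF66 (log2 1.10 ± 0.18, edgeR adjusted p = 0.000536). In RefSeq order cacng7, cacng8 and cacng6 are consecutive. The middle gene, cacng8, ranged from 0.745 to 1.71 CPM at NF50 and from 1.10 to 5.99 at NF66 and did not pass.

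HCN channels carry the pacemaker current that opens on hyperpolarisation. By far the most abundant was hcn3, with 138.5, 131.8 and 140.4 CPM at NF50, 180.3, 184.4 and 168.3 at NF56, 191.7, 202.2 and 195.9 at NF62, and 211.9, 229.8 and 193.5 at NF66. NF50 lay below all later stages, while NF62 and NF66 overlapped. It rose by 0.38 ± 0.06 at NF56 against NF50 (edgeR adjusted p = 0.00373) and by 0.63 ± 0.06 by NF66 (edgeR adjusted p = 2.5e-05).

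The gene hcn4 was low, between 0.472 and 2.62 CPM in every library and did not pass.

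**Figure D4:**
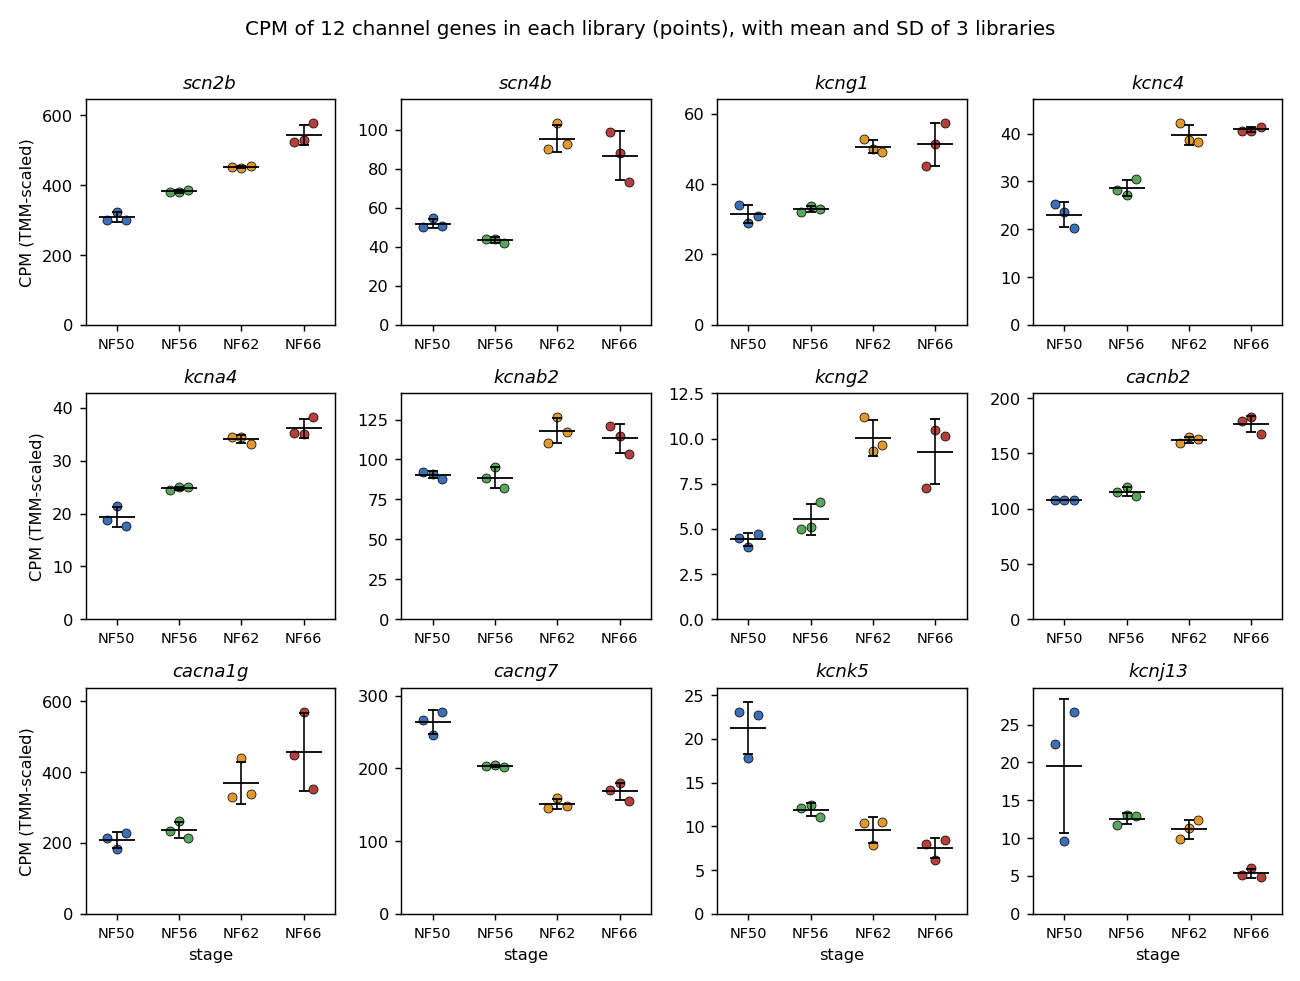
Points are TMM-scaled CPM in each library by stage, with the mean and SD of 3 libraries, for 12 channel genes. The upper 9 genes are higher in all NF62 and NF66 libraries than in all NF50 libraries, with scn4b, kcng1 and kcng2 stepping up between NF56 and NF62, and cacng7, kcnk5 and kcnj13 are lower at NF66 than at NF50.

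Delayed-rectifier and A-type potassium channels repolarise the action potential and set firing rate. Of 7 tested Kv1 pore genes 3 rose at NF66 against NF50, beside 17.9% of all models. The A-type gene kcna4 had 18.8, 21.4 and 17.6 CPM at NF50, 24.5, 25.0 and 24.9 at NF56, 34.5, 34.4 and 33.2 at NF62, and 35.2, 35.0 and 38.2 at NF66. No stage overlapped with another. It rose by 0.36 ± 0.08 and 0.46 ± 0.08 at the earlier steps (edgeR adjusted p = 0.0104 and 0.00191) and by 0.90 ± 0.08 over all (edgeR adjusted p = 6.44e-06). The axonal gene kcna2 had 98.8 ± 8.88 CPM at NF50 and 114.2 ± 9.56 at NF66 (log2 0.21 ± 0.08, edgeR adjusted p = 0.051) and did not pass. In mean TPM over the 12 libraries kcna5 (30.06 TPM) and kcna2 (29.59 TPM) were the highest Kv1 pore genes, and kcna2 was the higher at NF56 and NF62. A second model named kcna5, with 22.2% of the counts of the name, was left out, so the order of these genes is uncertain. The CPM of kcna5 was 34.2 ± 1.75 at NF50 and 35.5 ± 3.65 at NF66, and it did not pass either (edgeR adjusted p = 0.742).

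Kv3 channels deactivate fast and let neurons fire at high rates. Their gene kcnc4 averaged 23.1 ± 2.56, 28.6 ± 1.67, 39.7 ± 2.16 and 40.9 ± 0.492 CPM over the stages. It rose by 0.48 ± 0.09 at NF62 against NF56 (edgeR adjusted p = 0.00296) and by 0.82 ± 0.09 by NF66 (edgeR adjusted p = 2.54e-05). The Kv3 gene kcnc1 rose by 0.36 ± 0.09 by NF66 (edgeR adjusted p = 0.00708), from 96.2 ± 9.61 to 123.3 ± 12.3 CPM.

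Other Kv families held smaller moves. The Kv4 gene kcnd3, a somatodendritic A-type channel, rose by 0.23 ± 0.05 by NF66 (edgeR adjusted p = 0.00289), from 167.0 ± 7.66 to 196.3 ± 5.39 CPM. Of 6 EAG, ERG and ELK genes the ELK genes kcnh3 and kcnh8 rose, by 0.44 ± 0.07 (edgeR adjusted p = 0.000365) and 0.49 ± 0.07 (edgeR adjusted p = 0.000286). The EAG gene kcnh1, between 0.397 and 1.52 CPM in the libraries, did not pass (edgeR adjusted p = 0.242). The Kv2 gene kcnb2, a delayed rectifier that shapes repetitive firing, had 36.0 ± 1.93 CPM at NF50 and 41.0 ± 3.24 at NF66 and did not pass (edgeR adjusted p = 0.0995).

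Of the silent subunits 3 of 5 rose, all at climax, where 9.95% of all models rose. At NF62 against NF56 kcng2 rose by 0.87 ± 0.17 (edgeR adjusted p = 0.00453), kcng1 by 0.62 ± 0.09 (edgeR adjusted p = 0.00085) and kcnf1 by 0.58 ± 0.09 (edgeR adjusted p = 0.00101). For kcng2 the CPM values were 4.52, 4.01 and 4.74 at NF50, 4.99, 5.10 and 6.52 at NF56, 11.2, 9.29 and 9.63 at NF62, and 7.25, 10.5 and 10.1 at NF66, so that no early library reached a late one. Of the 5 tested silent genes none passed at NF56 against NF50 or NF66 against NF62 by edgeR, with 0 at an unadjusted p under 0.05 and 0 by DESeq2. Their products join Kv2 pores and change their gating.

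Cytoplasmic Kv subunits bind either Kv1 pores (Kv beta) or Kv4 pores (KChIP). All 3 Kv beta genes rose by NF66. The gene kcnab2 had 92.0, 91.2 and 87.9 CPM at NF50, 88.4, 95.2 and 82.4 at NF56, 110.5, 126.3 and 117.4 at NF62, and 121.2, 115.0 and 103.5 at NF66. The late libraries all lay above the early ones, and the rise at NF62 against NF56 was 0.41 ± 0.08 (edgeR adjusted p = 0.00335). In the same step kcnab1 rose by 0.75 ± 0.16 (edgeR adjusted p = 0.00818). The most abundant of them, kcnab3, rose by 0.47 ± 0.16 by NF66 (edgeR adjusted p = 0.0394), a call lost without any 1 of the NF50 libraries, NF56 library 1, NF66 library 1 or NF66 library 2 (highest adjusted p 0.136).

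Among KChIP genes, which encode calcium-binding proteins, kcnip2 rose early, from 81.5 ± 5.60 CPM at NF50 to 104.3 ± 5.57 at NF56 (log2 0.36 ± 0.06, edgeR adjusted p = 0.00363), and stood at 117.0 ± 2.03 at NF66. The abundant kcnip1 rose by 0.41 ± 0.12 by NF66 (edgeR adjusted p = 0.0196), and this was lost without NF50 library 3 or NF66 library 2. Its rise at NF62 against NF56 (0.38 ± 0.12, edgeR adjusted p = 0.0481) was lost in 9 of the 12 fits that left out a library, with a highest adjusted p of 0.157. The gene kcnip3 did not pass in any contrast.

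Potassium channels gated by calcium or sodium link ion entry to repolarisation. The BK pore gene kcnma1 rose by 0.37 ± 0.07 by NF66 (edgeR adjusted p = 0.00252), from 173.2 ± 8.11 to 223.4 ± 24.6 CPM. Its beta subunits split. The neuronal subunit gene kcnmb4 went from 12.1 ± 1.71 to 19.9 ± 1.75 CPM (log2 0.72 ± 0.12, edgeR adjusted p = 0.000768) and kcnmb2 from 50.8 ± 3.14 to 69.7 ± 1.94 (log2 0.46 ± 0.06, edgeR adjusted p = 0.000111). The gene kcnmb3 fell, from 13.9, 11.0 and 12.1 CPM at NF50 to 7.62, 7.03 and 8.998 at NF66 (log2 -0.64 ± 0.16, edgeR adjusted p = 0.00918).

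Sodium-activated channels held one of the 2 genes that rose after climax. The gene kcnt2 had 134.9, 115.9 and 136.7 CPM at NF50, 122.1, 134.9 and 103.9 at NF56, 116.8, 130.7 and 106.4 at NF62, and 172.1, 211.9 and 157.7 at NF66. Only the NF66 libraries stood apart from the rest. It rose at NF66 against NF62 by 0.61 ± 0.13 (edgeR adjusted p = 0.0317), but the call was lost in 6 of 12 fits, those without NF50 library 1, NF56 library 1, NF62 library 1, NF62 library 3, NF66 library 1 or NF66 library 2. Its relative kcnt1 rose by 0.85 ± 0.21 by NF66 (edgeR adjusted p = 0.00886) and passed at no single step. SK channels carry the afterhyperpolarisation that follows a spike. Their most abundant gene, kcnn1, rose by 0.26 ± 0.08 by NF66 (edgeR adjusted p = 0.0292), which was lost without NF50 library 1, NF50 library 3, NF66 library 1 or NF66 library 2 (up to 0.111). The SK gene kcnn2 had 23.0 ± 2.49 and 27.6 ± 2.52 CPM and did not pass (edgeR adjusted p = 0.0577).

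Of 10 tested inward rectifier genes, 1 was higher and 1 lower at NF66 against NF50, beside 17.9% and 18.8% of all models. The most abundant, kcnj10, which in glia buffers potassium, had 78.4, 63.7 and 75.9 CPM at NF50, 61.6, 60.2 and 52.1 at NF56, 71.0, 84.4 and 64.5 at NF62, and 108.5, 85.6 and 74.9 at NF66. Its NF50 and NF66 libraries overlapped and the difference of 0.30 ± 0.14 did not pass (edgeR adjusted p = 0.128). Among the 4 stages kcnj10 did differ (edgeR adjusted p = 0.0292), with its lowest mean at NF56 and its highest at NF66. The gene kcnj11, the pore of the channel closed by ATP, rose by 0.30 ± 0.08 (edgeR adjusted p = 0.012), lost without NF50 library 1 (0.0524).

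The largest fall of a channel gene was that of kcnj13, which in mammals is an epithelial channel of the choroid plexus and retinal pigment epithelium. It had 22.4, 9.67 and 26.7 CPM at NF50, 11.69, 13.1 and 12.9 at NF56, 9.86, 11.3 and 12.4 at NF62, and 5.12, 5.98 and 4.90 at NF66. NF50 library 3 lay below every library of the middle stages and the other NF50 libraries above them, and every NF66 library was below all others. The change by NF66 was -1.88 ± 0.30 (edgeR adjusted p = 0.000493). A choroid plexus marker, clic6, had 19.1, 10.6 and 22.1 CPM in the same NF50 libraries and 4.94, 5.09 and 4.44 at NF66. Of 7 tested choroid plexus and ependyma markers 4 fell and 0 rose in this contrast, beside 18.8% and 17.9% of all models. Their summed level was 122.6 to 158.6 CPM at NF50 and 72.7 to 95.4 at NF66. The defining markers ttr and folr1 were below 0.5 CPM in every library. The part of this tissue in the kcnj13 values was not tested. Whether counting used strand is not stated, and a further model, which joins kcnj13 to gigyf2, was left out.

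Two-pore-domain channels carry the leak current of the resting cell. The gene kcnk5, an alkaline-activated member known from kidney and brainstem of mammals, had 23.1, 17.8 and 22.7 CPM at NF50, 12.1, 12.5 and 11.0 at NF56, 10.4, 7.91 and 10.5 at NF62, and 7.99, 6.19 and 8.41 at NF66. All later libraries lay below all NF50 libraries. It fell by 0.83 ± 0.15 at NF56 against NF50 (edgeR adjusted p = 0.00535), and at NF66 the change was -1.49 ± 0.16 (edgeR adjusted p = 2.91e-05). Its share of two-pore-domain TPM was 12.5% ± 2.002 at NF50, 6.44% ± 0.381 at NF56, 4.85% ± 0.771 at NF62 and 3.99% ± 0.613 at NF66.

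Of 10 tested two-pore-domain genes, 3 rose and 1 fell at NF66 against NF50, beside 17.9% and 18.8% of all models. The TREK-type gene kcnk10, a channel opened by stretch and lipids, had 23.3, 26.0 and 26.5 CPM at NF50, 32.2, 33.3 and 32.9 at NF56, 45.5, 45.3 and 43.1 at NF62, and 43.2, 43.5 and 41.1 at NF66. It rose by 0.38 ± 0.06 and 0.44 ± 0.06 at the earlier steps (edgeR adjusted p = 0.00371 and 0.000827). The gene kcnk15 rose from 1.24, 1.25 and 1.417 CPM at NF50 to 3.92, 3.25 and 4.87 at NF66 (log2 1.63 ± 0.26, edgeR adjusted p = 0.000581). The most abundant, kcnk4, was higher at NF56 than at NF50 by 0.27 ± 0.05 (edgeR adjusted p = 0.00506), and its rise of 0.15 ± 0.05 by NF66 was lost in 9 of 12 fits that left out a library. A second model of that name, with 34.2% of the counts of the name, rose by 0.91 ± 0.12 by NF66 (edgeR adjusted p = 0.000179), so levels of kcnk4 as a gene are uncertain. The gene kcnk2 averaged 13.6 ± 1.19 CPM at NF50 and 15.2 ± 1.15 at NF66 and did not pass, nor did kcnk1, at 4.07 ± 0.439 and 5.13 ± 0.730 CPM (edgeR adjusted p = 0.121). Among the 4 stages kcnk1 did differ (edgeR adjusted p = 0.0144), with its lowest mean at NF56 and its highest at NF66. At NF66 against NF62 it stood at 0.62 ± 0.16 (edgeR adjusted p = 0.0581).

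Kv7 channels carry the M current of neurons, and kcnq1 is the epithelial and cardiac member. The neuronal gene kcnq3 did not pass in any contrast, at 8.28 ± 0.288 CPM at NF50 and 8.55 ± 0.502 at NF66. The gene kcnq1 had 3.13, 3.24 and 2.346 CPM at NF50, 1.76, 1.603 and 1.51 at NF56, 1.35, 1.26 and 1.46 at NF62, and 1.25, 1.57 and 1.15 at NF66. All later libraries lay below the NF50 libraries, and the change by NF66 was -1.14 ± 0.20 (edgeR adjusted p = 0.000913). The gene kcne3, whose product is an epithelial partner of kcnq1 in mammals, had 2.29, 1.56 and 2.15 CPM at NF50 and 1.25, 1.10 and 1.24 at NF66 (log2 -0.73 ± 0.25, edgeR adjusted p = 0.0429). That call was lost in 8 of 12 fits that left out a library, with a highest adjusted p of 0.137.

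Some channel genes differed more among libraries of a stage than between stages. For 11 of the 95 tested genes, the library of a stage that lay highest on the within-stage axis exceeded the lowest by more than 2-fold in the median of the 4 stages, after adding 0.1 CPM to each. No gene differed by as much the other way. For 10 genes the highest and the lowest library of every stage were those of the axis, among them kcnh2, kcna1, cacng3 and kcnj3. The axis was computed from all tested models, these genes included, and the set was picked with the values in view. How many of all tested models follow the axis in this way was not counted, so this spread is not shown to be particular to channel genes.

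The ERG channel gene kcnh2, known for the repolarising current of the heart and found in brain, shows the size of this spread. It had 4.82, 7.83 and 4.06 CPM at NF50, 9.48, 5.88 and 15.9 at NF56, 18.9, 6.28 and 22.8 at NF62, and 9.05, 3.78 and 16.8 at NF66. In every stage library 3 was the highest. All stages overlapped, and the value of 0.83 ± 0.59 by NF66 did not pass (edgeR adjusted p = 0.305, interval -0.32 to 1.99). The gene kcnj3, a pore of the channel opened by G proteins, had 9.14, 14.0 and 9.04 CPM at NF50 and 12.8, 11.69 and 24.6 at NF66 (edgeR adjusted p = 0.276). The gene kcna1, an axonal Kv1 pore, had 2.58, 5.22 and 1.76 CPM at NF50 and 4.43, 4.04 and 6.55 at NF66 (edgeR adjusted p = 0.362). With a replicate block, given at the end, kcnh2 and kcnj3 passed at NF66 against NF50 and kcna1 did not. Without NF62 library 2 and NF66 library 3, an alternative added after the data were seen, 40 channel genes rose and 6 fell at NF66 against NF50.

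**Figure D5:**
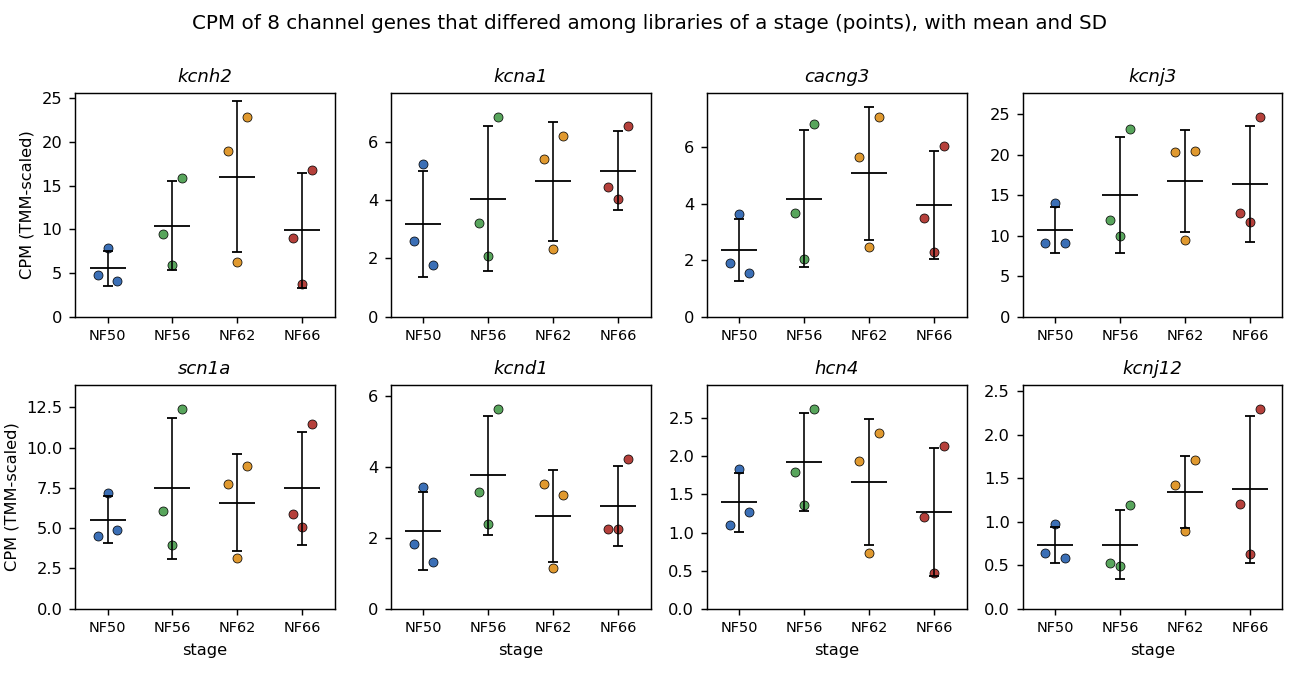
Points are TMM-scaled CPM in each library by stage, with the mean and SD of 3 libraries, for 8 channel genes picked because their libraries differ within stages. In kcnh2 a single library stands highest at NF56 with 15.9 CPM and at NF66 with 16.8, and at NF62 library 2 lies lowest with 6.28.

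Genes whose products anchor, chaperone or energise these channels were counted beside them. Of 53 tested partner genes, 29 rose and 3 fell at NF66 against NF50, with a median of 0.43, beside 17.9% and 18.8% of all models. At NF62 against NF56 20 of them rose, beside 9.95% of all models. The gene cntnap1, a paranodal adhesion protein of myelinated axons, went from 168.9 ± 5.18 CPM at NF56 to 296.6 ± 8.44 at NF62 (log2 0.81). The genes dpp6 and dpp10, auxiliary subunits of Kv4 channels, rose by 0.64 and 0.54 by NF66. The gene fgf12, whose product binds sodium channel tails, rose by 0.62 at NF62 against NF56. By contrast fgf11, of the same family, fell by 0.91 by NF66.

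The 13 channel genes with too few counts to test had at most 13 counts in any library. They include cacna1s, cacnb1, kcna10, kcnj5, kcnj16, kcnk9, kcns2 and kcnv2. Of 132 channel symbols of this kind in the RefSeq table, 27 had no model of that name alone here and were not analysed. Among them are cacna1b, cacna1c, kcnd2, kcnc2 and hcn2. Of the 33875 models 13395 carry a name, so reads of these genes may sit on unnamed models.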

How the data were processed

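The authors deposited RSEM expected counts and TPM for 33875 gene models per library, per the file headers. TPM was handled as a signal because models with several annotated genes repeat in the deposited tables, and each model was taken once. Per the submitters' processing notes the tools were Bowtie, RSEM, cutadapt, DESeq2 and CASAVA 1.8.2, with no roles named. The genome build was not given in the sources used, and coordinates are left out. Names came from the deposited annotation, and the RefSeq table of UCB_Xtro_10.0 served for names and gene order.

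Expected counts were rounded (74.3% of nonzero values were not whole). Models were kept by filterByExpr (minimum count 10, minimum total 15), leaving 19584 with 99.93% of the counts, and scaled by TMM. One mean per stage was fitted to the 12 libraries in edgeR 4.0.16 (R 4.3.3), with quasi-likelihood F tests and Benjamini-Hochberg adjustment over all models at 0.05. Errors of fold changes are SE, and intervals are 95%. The biological coefficient of variation was 18.3%. Each p-value sets a difference between stages against the spread among libraries within stages, estimated over these 12 libraries.

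Named genes are key members, the up to 6 largest rises and falls per contrast at a mean log2 CPM of 1 or more, and the most abundant member of each family. Others (cacna2d4, cacng3, cacng8, kcnab2, kcnc4, kcnh3, kcnip3, kcnj11, kcnmb2, kcnmb4, kcnq1) were named after their values were seen. The members and lists were chosen with earlier results of these data known. Alternatives used DESeq2 1.42.0, RLE factors, limma 3.58.1 on log2(TPM + 1), no filter, summed models, 2-stage fits, a replicate block and leaving out libraries. Some channel genes are not reported here. The fitting code was tested on simulated data.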

Additional observations from a re-analysis of the deposited data

Results flagged for a closer look

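Gene models that count a channel gene together with another gene were left out of the comparisons and still held signal in every stage. The model joining cacna2d1, an alpha2delta subunit gene, to hgf held 45335 counts over the 12 libraries. Its CPM was 123.4 ± 8.09 at NF50, 152.2 ± 1.95 at NF56, 184.5 ± 17.1 at NF62 and 200.4 ± 16.0 at NF66 (SD, n = 3). It was higher at NF66 than at NF50 by 0.70 ± 0.08 on the log2 scale (edgeR adjusted p = 4.52e-05). Which of the joined genes gave the reads cannot be told apart. The model joining gigyf2 to kcnj13 held 22561 counts, at 86.1 ± 9.36 CPM at NF50 and 88.2 ± 16.4 at NF66 (log2 0.03, edgeR adjusted p = 0.885), while the separate kcnj13 model was lower at NF66.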

How the results depend on the processing

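The counts of channel genes called higher and lower stayed within 1.5 times the main values (15 and 4, 19 and 1, 2 and 0, 42 and 6, and 44 for any stage) except as follows and with a replicate block, given last. Limma on log2(TPM + 1) without rescaling called 1 higher and 0 lower at NF56 against NF50, 1 and 0 at NF62 against NF56, 0 higher at NF66 against NF62, 2 lower at NF66 against NF50, and 28 for any stage. It also reversed cacng7 at NF56 against NF50, to 0.01, where the median of all models moved by 0.32 on that scale. The cause of the reversal was not tested. DESeq2 called 1 lower at NF66 against NF62, and a fit of those 2 stages alone called 0 higher, with fewer samples. Without both libraries at the ends of the within-stage axis, added after the data were seen, 4 rose at NF66 against NF62 and 2 fell at NF62 against NF56.

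Leaving out 1 library in turn gave 10 to 16 higher and 2 to 5 lower at NF56 against NF50, 12 to 20 and 1 to 2 at NF62 against NF56, 0 to 2 and 0 to 1 at NF66 against NF62, 36 to 43 and 5 to 7 at NF66 against NF50, and 37 to 50 for any stage. Of the calls, 12 of 19, 13 of 20, 0 of 2 and 38 of 48 were kept in all 12 of these fits.

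The labels do not say that replicate numbers mark shared animals or batches. Deviations of same-numbered libraries correlated from 0.52 to 0.64 for number 2, from 0.45 to 0.59 for number 3 and from -0.18 to 0.09 for number 1, beside -0.73 to 0.56 in 39 other pairs. Of the 15 same-numbered pairs, 9 were over 0.1, and the 6 pairs of number 1 stayed under it. On the within-stage axis number 3 lay highest in every stage (32.9, 42.1, 29.1 and 49.8 from NF50 to NF66). Number 2 lay lowest at NF56, NF62 and NF66 (-33.4, -54.2 and -42.2), and NF50 has no library of that number. Number 1 lay between the other libraries of each stage (-9, -8.7, 25 and -7.7). Low correlations for number 1 therefore cannot tell whether the numbers mark a shared source. The block was kept as an alternative because the labels state no such link. With a replicate block the counts were 23 higher and 6 lower, 27 and 3, 7 and 2, and 53 and 7 in the same order, and 63 for any stage. Of the genes that varied within stages, kcnh2 (log2 0.96, edgeR adjusted p = 0.00284), kcnj3 (0.73, edgeR adjusted p = 0.017) and scn1a (0.65, edgeR adjusted p = 0.0357) then passed at NF66 against NF50, and kcna1 (edgeR adjusted p = 0.062) and hcn4 (edgeR adjusted p = 0.829) did not.

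Counting depth of 12046529 in the shallowest library limits the genes under about 1 CPM.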
